A study of Mus musculus with 3 samples.

Results

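Ser5-phosphorylated RNA polymerase II (Ser5) was mapped by ChIP-Seq in mouse bone marrow-derived macrophages before and after lipopolysaccharide (LPS), and the peaks described here are those inside gene bodies that were present in untreated cells and lost after LPS. A lost peak overlapped a protein-coding gene (GENCODE M1 on the mm9 genome) and lay more than 1 kb from the start of every coding transcript (TSS). It also overlapped no peak of the LPS library, held at least 15 tag 5′ ends in the untreated library, and had untreated tags, scaled to the library total, at least 2 times those after LPS, with 0 tags set to 0.5. Of 53467 untreated Ser5 peaks on chromosomes 1 to 19 and X, 39944 overlapped a coding gene and 26239 of those lay more than 1 kb from a TSS. Among the 14772 with at least 15 tags, 5097 (34.5%) were lost, 8174 overlapped an LPS peak and are called kept, and 1501 had no LPS peak but were less than 2 times lower. The lost peaks lay in 2163 of 22350 coding genes, called host genes below. Because the untreated and LPS tags chose these peaks, that contrast is a description throughout and no difference between the conditions was tested.

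The study has 3 libraries, 1 for each condition. The macrophages were grown from bone marrow of female Fvb mice (Fvb/Hsd in the study's methods) in L929-conditioned medium, which supplies macrophage growth factor, and were used at day 7 of culture. Ser5 was precipitated from untreated cells and from cells given LPS (10 ng/ml) for 2 h. The input DNA, chromatin sequenced without immunoprecipitation, came from untreated cells. Input from LPS-treated cells was not analysed here, the number of animals behind a library is not given in the sources used here, and mm9 is the genome of another mouse strain. With a single library for each condition no value has a replicate error. Intervals are exact 95% intervals for ratios and Wilson 95% intervals for shares, and they cover counting error only.

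The C-terminal domain of the largest Pol_II subunit is phosphorylated on Ser5 by TFIIH as transcription starts, and the mark is found both on initiating Pol_II near the TSS and on Pol_II further along the gene. A Ser5 peak inside a gene can therefore lie on elongating Pol_II of the host gene, on an internal promoter, or on an enhancer, many of which sit in introns and recruit Pol_II. Macrophages keep many enhancers accessible through PU.1, and LPS, which comes from the cell wall of Gram-negative bacteria, acts through Toll-like receptor 4 to switch on inflammatory genes through NF-kB, AP-1 and interferon regulatory factors. ChIP-Seq tags carry no transcript strand, so these data do not separate Pol_II that reads the host gene from Pol_II that starts within it.

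The untreated, LPS and input libraries held 7616771, 6249819 and 7533308 tags, with tag lengths of 45, 30 and 36 bases, and values are given as tags or as tags per 1000000 tags of the library (TPM). Promoters of 10 of 10 macrophage marker genes held Ser5 at 2 times input or more in untreated cells (summed 19.5 times), and the summed promoters of 6 lists of other cell types lay between 0.241 and 0.822 times input. Taken singly, 2 of 6 B cell, 1 of 6 T cell, 1 of 7 neutrophil, 1 of 6 fibroblast and 1 of 5 erythroid promoters also reached 2 times input. Of 5 dendritic cell promoters 0 did. Among LPS-response genes, Tnf went from 2352 to 19062 tags over the gene and 1 kb on each side of it, and Ccl5 from 29 to 9058. The longer untreated tags can be placed uniquely where shorter ones cannot, and in the lost peaks 95.6% of untreated tags kept a unique place when only their first 30 bases were used (kept peaks 96.1%). With those tags alone 4738 of the 5097 lost peaks still held at least 15 untreated tags.

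The DNA at the centre of 6 lost peaks is shown because these are the named intronic members, chosen for the lowest ratio after LPS or the most untreated tags, whose 300-base window overlaps no exon. Each window is centred on the position with most untreated tags and is read on the plus strand of mm9. The windows are chr12:3780428-3780727 in a later intron of Dtnb, chr7:152123441-152123740 in the second intron of Ccnd1, chr15:86000267-86000566 in the first intron of Cerk, chr19:10097109-10097408 in a later intron of Rab3il1, chr5:139847992-139848291 in the second intron of 3110082I17Rik and chr2:164667083-164667382 in a later intron of Pltp. Capitals mark matches, on either strand, to the motifs AP-1 (TGANTCA), E-box (CACGTG), the nuclear receptor motif (AGGTCA), SP/KLF (GGGCGG) and STAT (TTCNNNGAA).
Dtnb: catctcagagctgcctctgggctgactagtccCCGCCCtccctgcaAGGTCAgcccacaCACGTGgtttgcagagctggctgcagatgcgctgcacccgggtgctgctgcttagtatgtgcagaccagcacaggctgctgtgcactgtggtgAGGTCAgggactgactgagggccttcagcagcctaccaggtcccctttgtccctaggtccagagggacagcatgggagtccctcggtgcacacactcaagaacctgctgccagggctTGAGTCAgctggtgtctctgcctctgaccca
Ccnd1: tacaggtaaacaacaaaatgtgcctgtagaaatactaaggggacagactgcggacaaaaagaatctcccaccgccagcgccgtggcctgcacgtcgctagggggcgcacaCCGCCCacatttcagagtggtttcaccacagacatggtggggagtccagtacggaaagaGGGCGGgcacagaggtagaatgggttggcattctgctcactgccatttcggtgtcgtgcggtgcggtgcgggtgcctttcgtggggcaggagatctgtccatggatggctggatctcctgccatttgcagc
Cerk: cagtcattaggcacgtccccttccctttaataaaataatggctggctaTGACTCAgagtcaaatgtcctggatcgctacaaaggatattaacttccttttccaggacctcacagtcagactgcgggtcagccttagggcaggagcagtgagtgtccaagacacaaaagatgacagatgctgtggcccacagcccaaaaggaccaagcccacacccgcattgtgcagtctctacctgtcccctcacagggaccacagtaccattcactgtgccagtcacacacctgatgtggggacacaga
Rab3il1: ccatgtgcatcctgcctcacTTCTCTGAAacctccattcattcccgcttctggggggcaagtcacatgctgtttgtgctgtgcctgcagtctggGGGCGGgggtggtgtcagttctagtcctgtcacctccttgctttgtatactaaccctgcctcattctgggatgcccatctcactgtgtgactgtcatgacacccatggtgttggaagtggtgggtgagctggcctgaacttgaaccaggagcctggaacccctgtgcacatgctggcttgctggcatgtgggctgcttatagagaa
3110082I17Rik: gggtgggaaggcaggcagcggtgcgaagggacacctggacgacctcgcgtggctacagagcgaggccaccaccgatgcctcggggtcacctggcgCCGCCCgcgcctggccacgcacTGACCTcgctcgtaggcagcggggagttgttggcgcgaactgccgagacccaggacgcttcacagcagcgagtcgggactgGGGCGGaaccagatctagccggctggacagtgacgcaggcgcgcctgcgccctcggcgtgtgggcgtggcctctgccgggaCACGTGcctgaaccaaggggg
Pltp: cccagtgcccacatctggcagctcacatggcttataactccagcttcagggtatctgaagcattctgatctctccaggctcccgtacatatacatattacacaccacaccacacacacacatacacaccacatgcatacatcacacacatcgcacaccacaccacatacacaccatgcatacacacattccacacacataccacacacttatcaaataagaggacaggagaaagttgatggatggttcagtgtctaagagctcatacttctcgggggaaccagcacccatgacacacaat

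The Dtnb window held 144 untreated tags, 1 after LPS and 2 in input, and it carried 1 AP-1 match, 1 E-box, 2 nuclear receptor motifs and 1 SP/KLF match. In the Ccnd1 window there were 46, 0 and 7 tags and 2 SP/KLF matches. The Cerk window held 119, 10 and 5 tags around 1 AP-1 match. These windows lie in introns, and the Ccnd1 peak also covers the start of a noncoding transcript. The 3110082I17Rik window, with 182, 17 and 2 tags, was the richest of the 6 in G and C (71.0%, with 33 CpG dinucleotides). The Rab3il1 window held 54, 2 and 3 tags, a STAT match and an SP/KLF match. None of the listed motifs was found in the Pltp window (79, 11 and 12 tags), which holds a stretch of CA-rich repeats. No window of the 6 held the PU.1 motif GAGGAA.

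Summed over the 5097 lost peaks there were 160501 untreated, 31558 LPS and 21627 input tags, or 21072, 5049 and 2871 TPM. The ratio of LPS to untreated Ser5, which the selection holds low, was 0.240 (0.237 to 0.243). Untreated Ser5 stood 7.34 times above input (7.24 to 7.45), and 5088 of the peaks (99.8%) were at least 2 times above it. After LPS the same regions kept 1.76 times the input level (1.73 to 1.79). In a culture counted in bulk, fewer cells with Ser5 at a place and less Ser5 in each cell cannot be told apart. In 1258 peaks (24.7%) the LPS value was at or below input. These levels against input depend on the scaling, since 95.5% of input tags but 50.2% of untreated and 46.7% of LPS tags lay outside the Ser5 peaks. Scaled to the tags outside peaks, a check chosen after seeing the data, untreated Ser5 over the same 5097 peaks stood 13.96 times above input, LPS Ser5 stood 3.599 times above it, and 557 peaks (10.9%) had an LPS value at or below input. The kept peaks, counted in the same way, stood at 10.8 times input before LPS and 12.03 times after it.

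Single lost peaks held 15 to 451 untreated tags with a median of 23, 0 to 64 tags after LPS with a median of 5, and 0 to 51 input tags with a median of 3. The ratio of LPS to untreated had a median of 0.254, with quartiles of 0.143 and 0.366, and it lay below 0.25 in 2522 peaks and below 0.1 in 836. At this depth a typical peak rests on few tags. The upper limit of the ratio's interval was below 1 in 4294 peaks (84.2%) and below 0.5 in 1495 (29.3%), so for most of the peaks the counts alone do not place the ratio under the 0.5 of the rule. No LPS tag was found in 252 peaks (4.94%). Peak lengths ran from 129 to 4726 bp with a median of 468 bp.

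**Figure D1:**
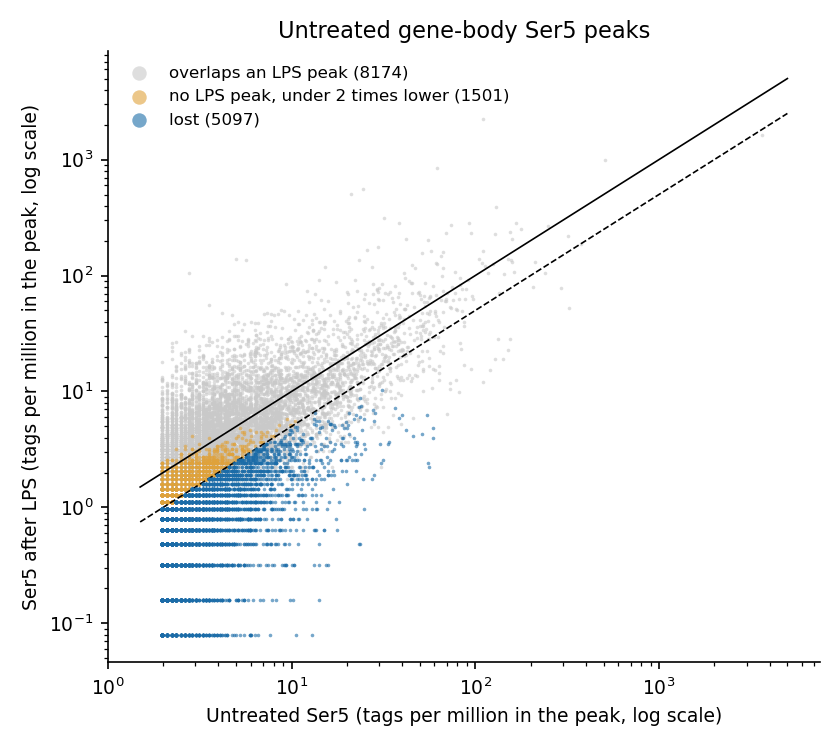
Each point is an untreated gene-body Ser5 peak of at least 15 tags, with untreated Ser5 on the x axis and Ser5 after LPS on the y axis, both in TPM on log scales (0 LPS tags drawn at 0.5 tags), the solid line marking equal values and the dashed line a ratio of 0.5. The 5097 lost peaks lie on or below the dashed line by selection, most of them at the low end of the untreated axis, while peaks of the highest untreated signal belong to the 8174 kept ones.

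At the edge of the tag minimum, members with 15 untreated tags included peaks in Ptpn18 (1 LPS and 0 input tags), Npas2 (2 and 3) and Arpc2 (4 and 0), and peaks just outside it with 14 tags included those in Lipt1 (0 and 0) and Rnf149 (1 and 1). There were 474 members at 15 tags, 507 otherwise lost peaks at 14, and 6088 below the minimum in all. At the edge of the ratio, Ifngr2 and Cadm4 (39 untreated and 16 LPS tags each) stood at 2.00 times and Lrrfip1 (22 and 9) at 2.01 times, while Dgkd, Ptpn7 and Tnr (17 and 7 tags each) stood just outside at 1.99 times. Values just inside and just outside each threshold lie within counting error of each other.

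The share of gene-body peaks that were lost was lower at higher untreated signal, going from 41.7% of 4361 peaks with 15 to 19 tags to 24.8% of 1853 peaks with 50 to 99 tags and 11.9% of 1154 peaks with at least 100. The 137 lost peaks of the last class lay in 100 genes. They held 21979 untreated, 2828 LPS and 2215 input tags, an LPS to input ratio of 1.54. Under the same rule 36% of 7941 untreated peaks outside coding genes were lost and 8.73% of 13272 peaks within 1 kb of a coding TSS, so gene-body peaks were lost at a share near that of peaks outside genes. These places were not matched on untreated tags. The part of counting error, and of the smaller LPS library, in the shares of this paragraph was not tested.

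Like kept peaks and those gained after LPS, lost peaks were mostly intronic. Their centres lay in the first intron in 1216 cases (23.9%, 22.7 to 25.05), the second in 567 (11.1%) and a later one in 2218 (43.5%). Coding exons held 514 (10.1%), 3′ UTRs 428 (8.40%) and 5′ UTRs 5, while 79 had their centre just past the 3′ end of the gene they overlapped and 70 lay in other exons or on no coding transcript. For kept peaks the first intron held 22.2% and 3′ UTRs 9.90%, and for the 6565 gene-body peaks gained after LPS 25.8% and 4.46%. The nearest coding TSS was 1002 to 362453 bp away, with a median of 10515 bp (kept 8462, gained 15703). More than 1 coding gene was overlapped by 253 of the 5097 lost, 490 of the 8174 kept and 133 of the 6565 gained peaks. A start of any transcript, noncoding ones included, lay within 1 kb of 580 lost peaks (11.4%), beside 13.6% of kept and 5.85% of gained peaks. Among the peaks named below, those of Itgb5, Dgkz and Fmnl1 cover such a start, and those of Pygb and Dtnb lie 191 and 802 bp from one. Read by distance, 28.0% of untreated gene-body peaks 1 to 2 kb from a TSS were lost and 40.9% of those more than 50 kb away.

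Many lost peaks stood little above the Ser5 signal around them. The density of untreated tags in the peak was a median 2.09 times that in the 2 kb on each side, and the density of LPS tags in the same interval was 1.11 times its surroundings. The untreated median was 1.83 for kept peaks and the LPS median 1.71 for gained peaks, so a low contrast was not particular to lost peaks. At the centre of the averaged profile untreated Ser5 reached 10.9 TPM per kb and LPS 2.27, with input at 1.05. From 2 to 3 kb away untreated Ser5 remained between 3.97 and 4.35 TPM per kb and LPS between 1.90 and 2.15, so the surroundings of the lost peaks were lower after LPS as well. Other lost peaks, chosen by the rule as lower, were not left out of these surroundings, and their part in this difference was not tested. The centre was placed on the untreated maximum, which raises the untreated value there. In 1160 lost peaks (22.8%) the density was at least 4 times the flanks, beside 19.6% of kept and 11.3% of gained peaks (LPS tags for the gained). These 1160 were shorter than the other 3937 (median 400.5 against 486 bp) and further from a TSS (median 17412 against 9125 bp).

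**Figure D2:**
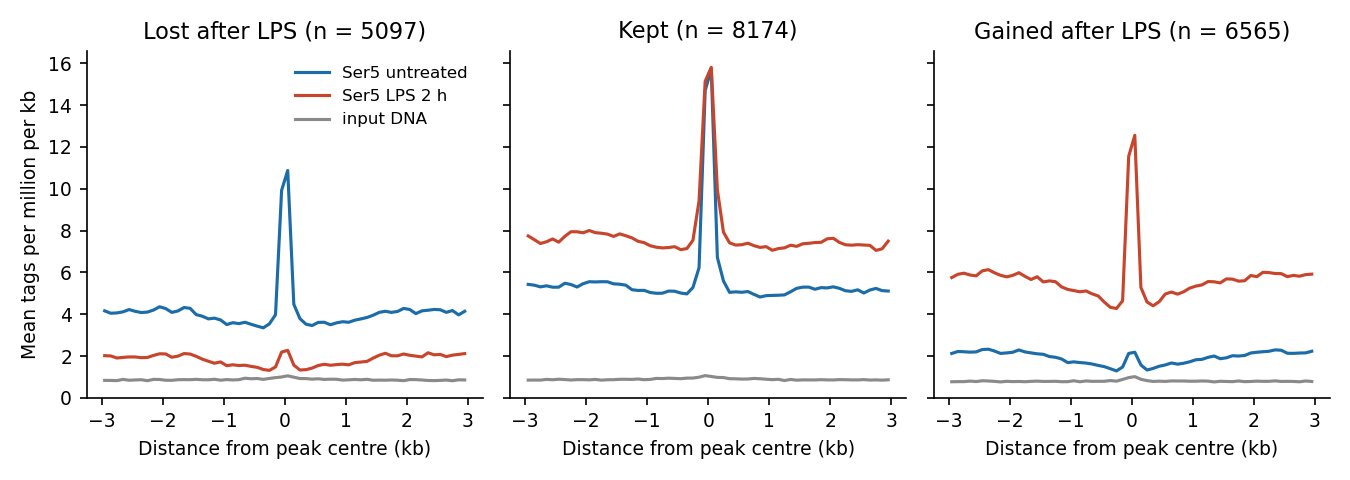
Mean Ser5 and input signal in TPM per kb against the distance from the peak centre in kb, for lost, kept and gained gene-body peaks, with 1 line for each library. In the lost panel the untreated line peaks at 10.9 over flanks near 4, the LPS line runs between 1.31 and 2.27, and the input line between 0.817 and 1.05.

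The lost peak with the most untreated tags lay at chr8:87227409-87229897, in the 3′ UTR of Nfix, a nuclear factor I transcription factor, and it also overlapped Lyl1, a helix-loop-helix factor of blood cells. It held 451 untreated tags, 30 after LPS and 17 in input, a ratio of 0.0811 (0.0541 to 0.117). The Nfix promoter was at the input level (12, 12 and 12 tags), whereas the Lyl1 promoter held 451, 48 and 19 tags, so Ser5 at this place cannot be assigned to Nfix from the overlap. Just past the 3′ end of Scd2, a stearoyl-CoA desaturase that makes monounsaturated fatty acids, the peak at chr19:44381316-44384209 held 447, 25 and 23 tags. Slc37a2, a sugar-phosphate transporter of the endoplasmic reticulum, had 429, 14 and 35 tags over its 3′ UTR (chr9:37035015-37038570). Its LPS level was below input in TPM.

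Lrp1, an endocytic receptor for lipoproteins and dying cells, had its strongest lost peak in a later intron (chr10:127025913-127030638, 4726 bp, the longest of all), with 422 untreated, 15 LPS and 49 input tags. For Apobec1, the cytidine deaminase that edits apolipoprotein B mRNA, a peak past the 3′ end (chr6:122525814-122527860) held 415, 39 and 32 tags, of which 312 of the untreated ones were unique at 30 bases. Cerk, ceramide kinase, followed with 389, 27 and 35 tags in its first intron (chr15:85998812-86001090). In TPM, LPS Ser5 was below input in the Lrp1 and Cerk peaks and above it in the Apobec1 peak.

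Rab3il1, an exchange factor for Rab GTPases, had 347, 26 and 46 tags at chr19:10095721-10099311, and the uncharacterised 3110082I17Rik had 321, 29 and 31 at chr5:139846896-139849072. Both peaks were near input after LPS. At the end of Pygb, a glycogen phosphorylase, a peak that also overlaps Abhd12, a lysophosphatidylserine lipase, held 306, 39 and 29 tags (chr2:150654315-150658246). Pltp, phospholipid transfer protein, completed the 10 with 294, 37 and 20 tags at chr2:164666305-164668119, where the gene overlaps Ctsa, the lysosomal protease cathepsin A.

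The lowest ratios, ordered by the upper limit of the interval, began with Gm10722, a predicted gene, with 99 untreated and 0 LPS tags. Its input count was 48, 249 of its 253 30-base sequences are repeated elsewhere in mm9, and none of its 99 untreated tags was unique at 30 bases, so a lower Ser5 level there and the shorter LPS tags cannot be told apart. Among the 5097 peaks it was the only one with no unique tag. A coding-exon peak of Lrp1 (chr10:127009289-127010755) came next with 81 untreated, 0 LPS and 4 input tags. It was 22.2-fold lower after LPS with 0 set to 3 tags, and the interval of its LPS to untreated ratio reached 0.0568.

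Laptm5, a lysosomal membrane protein of blood cells, had 180, 3 and 10 tags in its 3′ UTR (chr4:130491359-130493152). The Dtnb peak (dystrobrevin beta, chr12:3780350-3781298) had 178, 3 and 9 tags and stood 17.4 times above its flanks in density, the sharpest of the named peaks. Trem2, a lipid-sensing receptor of myeloid cells, had 120, 2 and 18 tags past its 3′ end (chr17:48493093-48494722). In all 3 the LPS count was below the input count.

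In the coding exon of Gpr146, a G-protein coupled receptor gene that lies within 3110082I17Rik, there were 117, 2 and 3 tags (chr5:139868280-139869735). A first-intron peak of Snx24, a sorting nexin, went from 58 tags to 0, with 6 in input. It was 15.9-fold lower with 0 set to 3 tags, and the interval of its ratio reached 0.0800. Ccnd1, which encodes cyclin D1 of the G1 phase and is induced by growth factors, had 108, 2 and 14 tags in its second intron (chr7:152123129-152124554). Tmem104, a transmembrane protein gene, had 188, 6 and 7 tags past its 3′ end (chr11:115107067-115109847), and Slc37a2, given above, also belongs to these 10. Apart from Gm10722, each of these peaks stood at least 6.59 times above input before LPS.

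Lost peaks were unevenly spread over genes. There were 1295 host genes with 1 lost peak, 659 with 2 to 4, 142 with 5 to 9 and 67 with 10 or more, and these 67 held 1217 of the peaks (23.9%). Peaks of the same gene share a transcription unit and are not independent of each other. The 8 genes with most lost peaks were Fnip2 (72 of its 77 untreated gene-body peaks), Lrp1 (50 of 51), Osbpl8 (46 of 88), Zmiz1 (46 of 70), Gm20388 (37 of 65), Dab2 (36 of 39), Mbnl1 (32 of 37) and Myo1f (30 of 32).

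In Fnip2, a partner of folliculin in nutrient sensing at the lysosome, the lost peaks ran from 4.57 to 109 kb of a 112-kb gene with a median spacing of 1.08 kb. Each held 15 to 130 untreated tags, with 0 to 32 after LPS and 0 to 12 in input. Their sum was 2346, 468 and 303 tags, and the promoter held 347, 118 and 17. The signal was thus spread along nearly the whole gene and 66 of the 72 peaks were intronic. Lrp1 showed the same spread from 4.07 to 83.1 kb, with 15 to 422 untreated tags per peak and sums of 3323, 206 and 368. LPS levels were at or below input in 32 of its 50 peaks, and its promoter went from 419 to 68 tags with 21 in input.

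**Figure D3:**
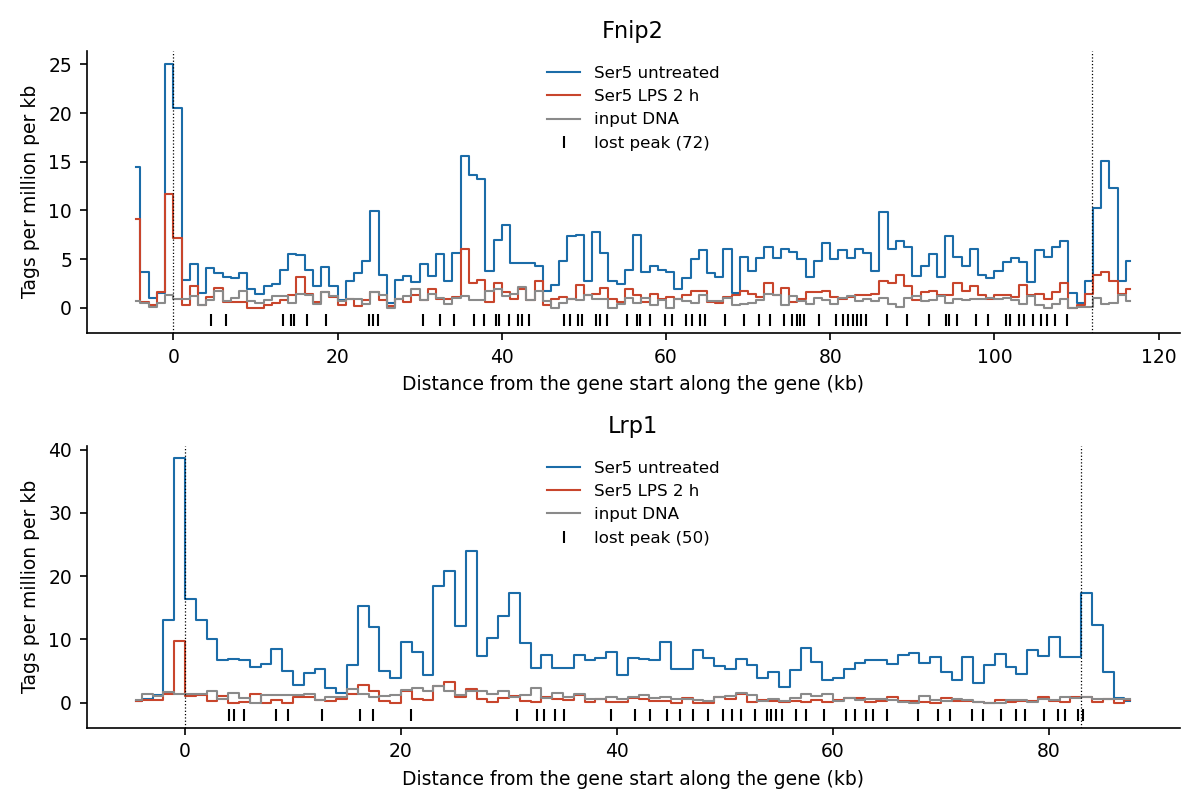
Ser5 and input signal in 1-kb bins (y axis, TPM per kb) along Fnip2 and Lrp1 (x axis, distance from the gene start in kb), with ticks for the centres of the 72 and 50 lost peaks and dotted lines at the gene ends. The untreated line lies above the LPS line over most of both genes, and in Lrp1 the LPS line runs along the input line past the promoter. The high untreated stretch of Lrp1 without ticks downstream of the promoter holds no centre of a lost peak.

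Dab2, a clathrin adaptor for endocytosis, lost 36 peaks with 1380, 249 and 212 tags in all, and its promoter went from 295 to 56 tags. Myo1f, a myosin of immune cells, lost 30 with 1194, 131 and 142 tags, and its promoter went from 288 to 51. In both genes the promoter and the gene-body peaks were low together after LPS. This was less so in Osbpl8, an oxysterol-binding protein relative, where 46 peaks summed to 1403, 377 and 201 tags while the promoter held 513 and 370, a ratio of 0.879 (0.767 to 1.01). Mbnl1, a splicing regulator, lost 32 peaks (736, 158 and 113 tags) with a promoter at 169 and 116 tags. In Zmiz1, a coregulator of transcription factors, 46 peaks summed to 1346, 318 and 210 tags and the promoter held 181 and 74. Gm20388 is a predicted gene model of 4435 kb, so its 37 peaks (1191, 204 and 167 tags) are spread over a region rather than a usual gene.

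Promoters of the host genes were counted within 1 kb of their most occupied coding TSS, which no lost peak reaches. They come from the same 2 libraries and the same contrast as the rule, so these values are also a description. Among 1996 host promoters with at least 10 tags, 465 (23.3%, 21.5 to 25.2) were lower by a factor of 2 or more and 28 (1.403%) were higher by as much, beside 14.1% and 5.82% of all 12983 coding promoters. The median ratio was 0.727 over host genes and 0.834 over all. It was 0.978 over 1859 genes with a kept and no lost gene-body peak and 1.30 over 1121 with a gained and no lost one.

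Host promoters were lower the more peaks the gene lost. The median ratio was 0.772 over 1165 genes with 1 lost peak, 0.698 over 624 with 2 to 4, 0.529 over 140 with 5 to 9 and 0.414 over 67 with 10 or more. Genes with more lost peaks were also longer, with a median length of 25302 bp for 1 lost peak and 72024 bp for 10 or more, and the part of gene length in these values was not tested. Of the 67, 38 (56.7%, 44.8 to 67.9) were at least 2 times lower and none was 2 times higher. Still, 360 host genes kept a promoter at or above its untreated level while losing 572 gene-body peaks. In those peaks Ser5 went from 15876 to 3806 tags with 2064 in input, an LPS to untreated ratio of 0.292 (0.282 to 0.303), against 0.185 (0.181 to 0.189) in the 1780 peaks of genes whose promoter was at least 2 times lower.

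**Figure D4:**
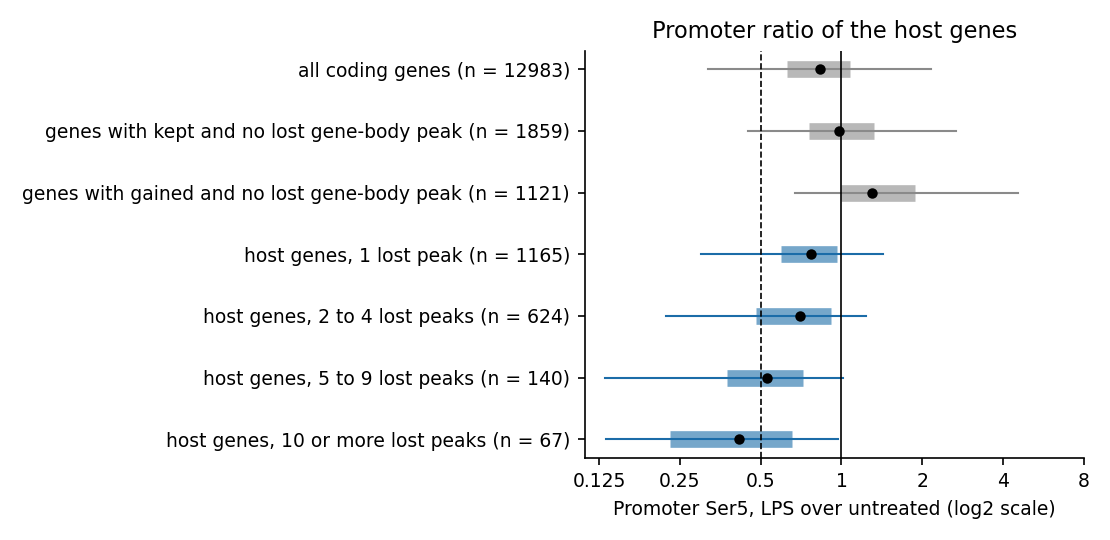
Ratio of promoter Ser5 after LPS to untreated (x axis, log2 scale) for host genes by their number of lost peaks, in blue, and for comparison sets of coding genes, in grey, with points for medians, boxes for quartiles and lines for the central 90% of genes. The medians of the host genes step down from 0.772 to 0.414, the solid line marks no change and the dashed line a ratio of 0.5.

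Among host promoters at least 2 times lower, those with most untreated tags were Bzrap1 (1033 to 409 tags), Cyth4 (949 to 329), Amdhd2 (892 to 305), Psap (883 to 257), Apobec1 (846 to 104) and Scd2 (827 to 187). Psap, the precursor of the saposins that activate lysosomal lipid hydrolases, lost 1 of its 5 gene-body peaks (72, 8 and 9 tags). Cyth4, an ARF exchange factor of blood cells, lost 4 of 12. Scd2 lost 7 of 7 and Apobec1 5 of 11, with promoter ratios of 0.276 (0.234 to 0.323) and 0.150 (0.121 to 0.184). Trem2 had a still lower promoter ratio of 0.0518, from 518 to 22 tags with 30 in input, and lost 7 of 7 gene-body peaks. Laptm5 went from 302 to 26 promoter tags and lost 12 of 12.

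The higher host promoters with most LPS tags were Rgl2 (588 to 1142 tags), Tmco6 (607 to 1092), Irf2 (238 to 439), Foxp1 (120 to 429), Cpd (187 to 393) and Cpeb3 (161 to 288). Each of these genes lost only 1 or 2 peaks. Foxp1, a forkhead transcription factor, lost 1 peak (28, 10 and 5 tags) and gained 78, and its promoter was 4.36 times higher (3.55 to 5.38). Irf2, an interferon regulatory factor, lost 2 of 12 peaks and gained 5, and Cpd, a carboxypeptidase, lost its only 1 and gained 19. In all, 247 of the 2163 host genes also gained a gene-body peak, beside 1416 of all 22350 coding genes. The median promoter ratio of these 247 host genes was 0.947.

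Outside the lost peaks and 500 bp on each side of them, Ser5 over the rest of the host gene bodies had a summed LPS to untreated ratio of 0.770 (0.767 to 0.772), beside 1.12 over all coding genes. In genes with 10 or more lost peaks it was 0.543 (0.538 to 0.549), or 0.448 without Gm20388, the longest of them and left out after seeing the data, and the median over the 67 genes was 0.365. Taken gene by gene, 551 of 2116 host genes (26.0%) were at least 2 times lower there, beside 11.5% of all 16460 coding genes, and 26 (1.23%) were at least 2 times higher, beside 6.97%. The median ratio was 0.706 over these host genes and 0.894 over these coding genes, so the typical coding gene was lower there too, unlike the sum. Summed over the host genes, Ser5 between the lost peaks was thus lower after LPS as well. Peaks that met the rule except for the tag minimum were not left out of this rest, and their part in it was not tested. Of 4424 coding genes with an untreated gene-body peak, 2163 (48.9%) lost at least 1, and 1020 of them lost every one they had. The median promoter ratio of the 903 of these 1020 genes with enough promoter tags was 0.684, and that of the genes that kept a gene-body peak was 0.774.

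Macrophage genes were grouped into 11 lists by role, chosen with earlier results of these data known, so the lists are not independent evidence of a direction. Scavenger, phagocytic and Fc receptors, through which macrophages take up particles, lost 111 of their 187 untreated gene-body peaks (59.4%), beside 34.5% over all genes, and 61 of 136 (44.9%) without Lrp1. Of 19 host genes in the list, 11 had a promoter at least 2 times lower and none 2 times higher, with a median ratio of 0.399. Itgb5, an integrin subunit in the uptake of apoptotic cells, had 170 untreated, 21 LPS and 27 input tags in a later intron, and its promoter went from 94 to 8 tags with 24 in input. Stab1, a scavenger receptor, lost 10 of 10 peaks, with 166, 25 and 16 tags in the strongest.

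Genes of cholesterol and lipid handling lost 114 of 226 peaks (50.4%), and 8 of 19 host promoters were at least 2 times lower (median 0.614). Scd2, Pltp and Osbpl8 held the strongest, and the Osbpl8 peak (first intron) had 93, 21 and 5 tags. Lysosome and proton pump genes lost 93 of 189 (49.2%), and 7 of 22 host promoters were at least 2 times lower (median 0.614). Hexa, a subunit of the lysosomal hexosaminidase, went from 75 tags to 1 with 10 in input in its first intron. Atp6v0a1, a subunit of the proton pump, lost 16 of 23 peaks, the strongest with 82, 31 and 10 tags, while its promoter ratio was 0.795.

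**Figure D5:**
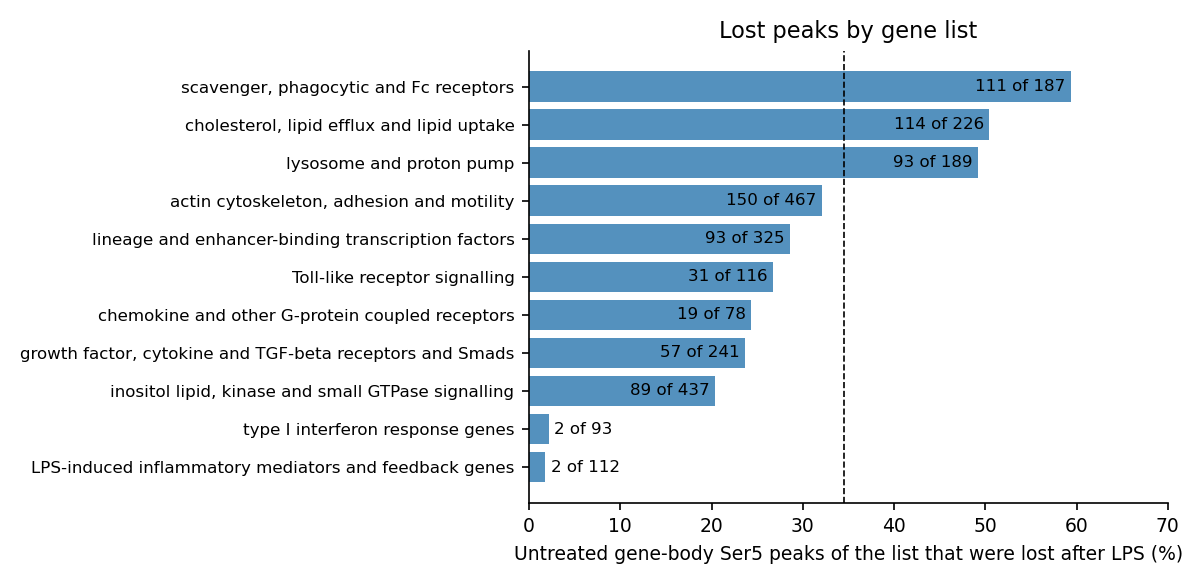
Share of untreated gene-body Ser5 peaks that were lost after LPS (x axis, percent) in 11 gene lists, with the counts on the bars and a dashed line at the share over all genes, 34.5%. Scavenger receptors, lipid genes and lysosome genes lie to the right of the line, the other lists to the left, with LPS-induced and interferon genes at 1.79% and 2.15%.

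The other lists stood below the share over all genes. Actin and adhesion genes lost 150 of 467 (32.1%), Myo1f leading with 104, 7 and 15 tags in a coding exon, followed by Arhgef6 (80, 16 and 12) and Fmnl1 (74, 12 and 3). Lineage and enhancer-binding transcription factors lost 93 of 325 (28.6%). Irf8, which directs macrophage development, had 157, 41 and 17 tags in its coding region, within 552 bp of the start of another transcript. Maf, a factor of resident macrophages, had 153, 30 and 18 in its first intron, and Bhlhe41, a helix-loop-helix repressor, 93, 11 and 6 past its 3′ end. Their promoters had ratios of 0.650, 0.667 and 0.178.

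Inositol lipid, kinase and small GTPase genes lost 89 of 437 (20.4%). Dgkz, a diacylglycerol kinase, gave 20 of the 89, the strongest with 183, 18 and 15 tags, and Inpp5d, the lipid phosphatase SHIP, lost 18 of 18 with 79, 7 and 9 tags in the strongest. In Sh3bp2, an adaptor protein, a first-intron peak held 82, 21 and 10 tags while the promoter was level (350 and 287 tags, ratio 0.999). Growth factor, cytokine and TGF-beta receptors with Smads lost 57 of 241 (23.7%), and 32 of 214 (14.95%) without Tgfbr2, a TGF-beta receptor with 95, 16 and 10 tags in its second intron. Smad3, its intracellular mediator, had 69, 6 and 3 tags in the 3′ UTR, and Ifngr2, an interferon-gamma receptor chain, 47, 16 and 1, with 27 of the 47 unique at 30 bases. With its unique tags alone, scaled to all unique untreated tags, this Ifngr2 peak stood at 1.48 times its LPS level and would not be a lost peak.

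Chemokine and other G-protein coupled receptors lost 19 of 78 (24.4%), but 7 of 65 (10.8%) without P2ry6, a nucleotide receptor whose strongest peak held 151, 34 and 28 tags. C5ar1, the complement C5a receptor, had 50, 6 and 2 tags, with 32 of the 50 unique at 30 bases, and Cxcr4, a chemokine receptor, 48, 5 and 3. Toll-like receptor signalling genes lost 31 of 116 (26.7%). Tlr4, the LPS receptor, had 66, 23 and 12 tags in its second intron, with 51 of the 66 unique at 30 bases. With its unique tags alone, scaled to all unique untreated tags, this Tlr4 peak stood at 1.95 times its LPS level, just under the rule. Tlr7, a sensor of single-stranded RNA, had 40, 5 and 7, and Cd180, a relative of Tlr4, 38, 15 and 9. For Tlr4 and Cd180 the interval of the LPS to untreated ratio reached 0.692 and 0.895.

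LPS-induced mediators and feedback genes lost 2 of 112 untreated gene-body peaks (1.79%) and type I interferon response genes 2 of 93 (2.15%), beside 348 and 208 peaks gained. The 4 lost peaks were small. Fos, an AP-1 subunit induced within minutes, had 23, 2 and 3 tags past its 3′ end, and Maff, a small Maf protein, 20, 6 and 2. Oas2, an antiviral enzyme, had 18, 5 and 0 tags, 8 of the 18 unique at 30 bases, and Eif2ak2, the kinase PKR, 17, 4 and 2. With its unique tags alone, scaled to all unique untreated tags, the Oas2 peak stood at 1.41 times its LPS level and would not be a lost peak. With all tags, the intervals of the LPS to untreated ratio for Maff, Oas2 and Eif2ak2 had upper limits between 0.879 and 0.946.

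Sequence was not used to choose the peaks. In windows of 300 bases, 1732 of the lost peaks (34.0%, 32.7 to 35.3) held the PU.1 motif GAGGAA on either strand, as did 33.9% (32.9 to 34.9) of kept and 29.8% of gained peaks and 25.1% of all 3146042 windows of that length tiled over coding gene bodies. Its longer form GAGGAAGT, which contains the first, was in 5.61%, 5.86%, 3.46% and 1.76%. Lost and kept peaks thus held the PU.1 motif at shares whose intervals overlap. The AP-1 motif TGANTCA was in 11.97% (11.1 to 12.9) of lost, 11.96% of kept and 12.1% of gained peaks and in 8.84% of tiles. The windows differ in composition, with a mean GC content of 51.6% for lost, 51.5% for kept and 47.3% for gained peaks and 42.7% for tiles, and shares were not adjusted for it.

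The IRF and NF-kB motifs were in few lost peaks. The IRF motif was found in 2.35% (1.97 to 2.81) of lost, 3.24% (2.88 to 3.65) of kept and 4.77% of gained peaks and in 4.60% of tiles, and the NF-kB motif in 0.549% (0.380 to 0.793), 0.820% (0.646 to 1.04), 0.701% and 0.371%. STAT (TTCNNNGAA) was in 7.02% of lost, 7.73% of kept and 9.25% of gained peaks. C/EBP (TTGCNNAA) was in 11.2%, 12.1% and 13.8%, RUNX (TGTGGTT) in 6.95%, 7.76% and 7.88%, and MEF2 in 4.41%, 4.20% and 5.10%. The E-box CACGTG, read by the lysosomal regulators MITF and TFEB, was in 5.85% (5.24 to 6.52) of lost, 5.54% of kept and 5.16% of gained peaks and in 3.37% of tiles. The nuclear receptor motif AGGTCA was in 21.9%, 21.8%, 19.6% and 17.0%. SP/KLF (GGGCGG) was in 7.99% (7.27 to 8.76) of lost against 10.3% (9.71 to 11.03) of kept and 4.08% of gained peaks, and CREB (TGACGTCA) was in 0.294%, 0.465% and 0.244%.

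The PU.1 motif share differed more by the shape of the peak than between the classes of peaks. Among the 1160 lost peaks at least 4 times denser than their flanks, 555 (47.8%, 44.98 to 50.7) held GAGGAA, 147 (12.7%) GAGGAAGT and 211 (18.2%, 16.1 to 20.5) the AP-1 motif, against 29.9%, 3.53% and 10.1% of the other 3937. The same split was present in kept peaks (46.1% and 30.9% for GAGGAA) and in gained peaks (39.8% and 28.5%), so it is not particular to peaks that were lost. In the sharp lost peaks Ser5 went from 38683 to 7344 tags with 5663 in input, a ratio of 0.231 (0.226 to 0.237), and in the others it was 0.242 (0.239 to 0.246).

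The distance to the nearest LPS peak was measured for lost peaks only, without a share over other peaks or positions to set beside it. An LPS peak lay within 1 kb of 1180 lost peaks (23.2%) and within 5 kb of 2789 (54.7%), and the nearest was at a median of 3946 bp. Peaks gained in gene bodies were rarer nearby. One lay within 10 kb of 229 lost peaks (4.49%, 3.96 to 5.10), and within 10 kb of 2876 of the 8174 kept peaks (35.2%, 34.2 to 36.2). Lost and gained gene-body peaks thus lay mostly in different neighbourhoods, which the selection on the same contrast favours.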

How the data were processed

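Ser5-phosphorylated Pol_II was profiled by ChIP-Seq in 3 libraries: untreated macrophages, macrophages after 2 h of LPS, and input DNA. The authors trimmed reads at their 3′ ends, aligned them to mm9 with Bowtie (version not given in the sources used here), keeping unique matches of 2 mismatches or fewer, and ran MACS on either Ser5 library with the input as control. The deposited tag files hold other values than expression, namely the start, end and strand of each aligned tag, not normalized. The deposited peak score is the MACS p-value on a negative log10 scale times 10. The study's methods give the tag lengths of the Ser5 libraries the other way round from the deposited tags, and the lengths in the files were used.

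Tags were counted by their 5′ end, duplicates included, and scaled to the library total. Peaks were placed on GENCODE M1 genes. Promoters spanned 1 kb on each side of the coding TSS with most tags and needed at least 10 tags over both Ser5 libraries. The rest of a gene body ran from 1 kb past that TSS to the 3′ end without the lost peaks and 500 bp around them, and centres were the maximum of tags moved 75 bp downstream. Named were the 10 lost peaks with most untreated tags and the 10 with the lowest upper limit of the ratio (1 for each gene), the 8 genes with most lost peaks, up to 3 genes in each list, the 6 lower and 6 higher host promoters with most tags, and peaks at each threshold. Some items that this rule names are not reported here. The members, lists and measures were chosen with earlier results of these data known. With 1 library for each condition no test was run, and precision comes from tag counts alone. Counting, overlap and motif functions were tested on simulated data and returned no wrong case. Python 3.11.15, numpy 2.4.6, pandas 2.3.3, scipy 1.17.1, numba 0.67.0 and matplotlib 3.10.9 were used. Alternatives were another scaling, 1 tag for each position, stricter peaks and minimums, other distances and unique sequence.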

Additional observations from a re-analysis of the deposited data

How the results depend on the processing

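Every ratio of LPS to untreated Ser5 over the lost peaks stayed below 1 under each alternative, as the rule requires, and no direction reversed. Of the recomputed values 47 stayed within their counting interval (counts within 1.5 times) and 57 did not. The cause of these moves was not tested, except that stricter settings hold fewer peaks by construction. The number of lost peaks, 5097, became 3260 with peaks of a score of at least 100, 1637 with at least 30 untreated tags and 1495 where the upper limit of the ratio's interval was below 0.5. Under every other setting the count was within 1.5 times of 5097. The share of untreated gene-body peaks that were lost (34.5%) was 32.5% when scaled to tags outside peaks, 32.2% with 1 tag per position and strand, 36.8% with the score minimum, 27.0% with 30 tags, 32.7% with only the gene's 5′ end as TSS, 36.3% over 5 kb from a TSS, 26.5% with no LPS peak within 1 kb, 10.1% with the interval rule and 35.5% with tags moved 75 bp.

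The summed LPS to untreated ratio (0.240) was 0.245 scaled to tags outside peaks, 0.243 with 1 tag per position, 0.257 with the score minimum, 0.226 with 30 tags, 0.222 with no LPS peak within 1 kb, 0.127 with the interval rule and 0.246 in peaks of unique sequence. The ratio of untreated Ser5 to input (7.34) was 14.1 scaled to tags outside peaks, 9.06 with the score minimum, 7.57 with 30 tags, 8.22 with the interval rule and 7.14 in unique sequence. The share of host promoters at least 2 times lower (23.3%) was 21.0%, 25.8%, 32.6%, 27.1%, 42.3% and 25.4% when scaled to tags outside peaks, with the score minimum, 30 tags, no LPS peak within 1 kb, the interval rule and unique sequence. The median host promoter ratio (0.727) was 0.775, 0.703, 0.643, 0.684, 0.565 and 0.711 in the same order, and the share at least 2 times higher was 0.929% with the interval rule. The rest of the host gene bodies (0.770) stood at 0.820 scaled to tags outside peaks, 0.736 with 1 tag per position, 0.718 with the score minimum, 0.610 with 30 tags, 0.774 with the gene's 5′ end as TSS, 0.747 over 5 kb, 0.716 with no LPS peak within 1 kb, 0.584 with the interval rule and 0.734 in unique sequence. The PU.1 motif share (34.0%) was 35.4% with the score minimum, 37.5% with 30 tags and 35.9% with no LPS peak within 1 kb, the AP-1 share (11.97%) was 14.1% with 30 tags, and the first-intron share (23.9%) was 21.0% with the score minimum and 19.6% over 5 kb.

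An alternative chosen after seeing the data kept only untreated tags whose first 30 bases occur at 1 place in mm9. It gave 4876 lost peaks, 4686 of them among the 5097 (91.9%), a summed ratio of 0.236, an untreated to input ratio of 7.60, 25.5% of host promoters at least 2 times lower, a median promoter ratio of 0.687 and a rest-of-body ratio of 0.757. No paired analysis was possible because each condition has 1 library and no result comes from a test. The spread between cultures is unknown, a median of 23 untreated and 5 LPS tags limits single peaks, and input from LPS-treated cells was not analysed here.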
